A study of Mus musculus with 24 samples.

Results

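The genes described here encode proteins of the mitochondrial ribosome in the mouse microglial line BV2, which grows without limit in culture, and in the small membrane particles (extracellular vesicles, EVs) that BV2 cells release. They were chosen by name, as every gene called Mrpl or Mrps followed by a number and at most 1 letter, which gave 77 genes of the 13290 in the tables, 48 named Mrpl and 29 named Mrps, called the members here. RNA was measured in cells and in EVs after 72 h of treatment and in untreated controls. The treatments were LPS, a lipopolysaccharide from the outer membrane of bacteria, at 100 ng/mL, and the cytokines IL-10 (interleukin-10) and TGF-β (transforming growth factor-β), each at 50 ng/mL. Both cytokines are known for dampening inflammation. The 24 libraries formed 8 groups of 3, and all groups came from this 1 line. The comparisons ask how each treatment changed the RNA of the cells, how it changed the RNA of the EVs, and how EVs differed from the cells that shed them.

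Mitochondria keep a small genome of their own and translate its few messages, all of them subunits of the respiratory chain, on a dedicated ribosome. The RNA of that ribosome is made inside the organelle, whereas every one of its proteins is encoded in the nucleus, translated in the cytosol and imported. Some of these proteins descend from bacterial ribosomal proteins and others were added in the mitochondrial lineage. The large subunit carries the catalytic centre and the exit tunnel while the small subunit decodes the message. In macrophages and microglia, inflammatory stimuli are known to shift the balance between oxidative phosphorylation and glycolysis.

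Depth was 3.02 to 17.98 M counts per EV library and 26.14 to 42.13 M per cell library. The LPS EVs stood apart from the other EVs: an LPS EV library was at 0 for 0.49% to 4.42% of the genes in the tables, against 19.58% to 50% in the IL-10, TGF-β and control EV libraries. Of 13 listed marker genes of neurons, astrocytes, oligodendrocytes, endothelium and fibroblasts, all 13 had counts in each LPS EV library (147 to 698 CPM summed), against 3 to 5 in IL-10 EVs (10.6 to 119 CPM), 1 to 6 in TGF-β EVs (21.2 to 143 CPM) and 2 to 7 in control EVs (120 to 323 CPM). In the cell libraries 5 to 9 of them had counts, with sums of 264 to 470 CPM, and their part in the EV results below was not tested. The lowest total of a gene in the tables was 240 counts over the 24 libraries. Of 8 markers sought per list, the tables held 3 for neurons, 5 for astrocytes, 2 for oligodendrocytes and 3 for endothelium and fibroblasts. The last 3 were at 24 to 124 CPM summed in LPS EVs, 0 in other EVs and at most 1.33 in cells. A gene seen mainly in LPS EVs can enter the tables through them, so their 13 markers and few zeros may partly follow from that. Of the 10 microglia and macrophage markers, 7 to 10 had counts in an EV library (1700 to 7570 CPM summed) and all 10 in every cell library (5540 to 9180 CPM). Values of the members are CPM, each library's counts scaled to a common total (CPM stands for counts per 1e6) and then by TMM, an edgeR factor that balances library composition, given by library or as the mean ± SD (n = 3). Adjusted p-values are from edgeR's quasi-likelihood test with Benjamini-Hochberg adjustment over all genes tested, and a gene is called higher or lower where that p is under 0.05. The labels do not say that the 3 libraries of a group came from different cultures, and the p-values rest on the spread between libraries, which may be technical. In RNA from whole cultures, fewer cells with a transcript and less of it per cell cannot be told apart.

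All 77 members had counts in every cell library, and all 77 passed the filter on low counts in each comparison. Per kb of transcript, the level in control cells had a median of 26.6 CPM per kb over the 77 members, against 5.84 over the 13257 listed genes with a length. The highest was Mrpl28, a conserved large-subunit protein, at 157, 171 and 146 CPM per kb in the 3 control libraries. Below it were Mrps21 of the small subunit (140 ± 14.1), Mrps18a (115 ± 6.44), Mrpl4 at the exit tunnel (89.8 ± 2.49) and Mrpl14 (89.4 ± 8.17). Mrpl28 and Mrps21 lay within their spread of each other, as did Mrpl4 and Mrpl14. The lowest was Mrpl47, a protein near the exit tunnel, at 1.66 ± 0.391 CPM per kb, below Mrps25 (2.11 ± 0.165), Mrpl32 (4.18 ± 0.449), Mrps35 (5.03 ± 0.149) and Mrpl58 (7.5 ± 0.526). The levels of the 77 members covered a 95.1-fold range, and long annotated transcripts (2596 to 6073 bases in these 5 genes) lower a value per kb. Within a group of cell libraries the spread of a member was small, with a median coefficient of variation of 6.77% in LPS, 5.75% in IL-10, 6.87% in TGF-β and 6.53% in control cells. In EVs it was 32.2% after LPS, 39.9% after IL-10, 43.1% after TGF-β and 45.3% in controls.

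The members lie on 17 chromosomes. Of the 77, 33 (42.9%) start within 1000 bases of a coding gene that runs the other way, against 17% of the 11744 listed coding genes, and Mrpl46 and Mrps11 on chromosome 7 are the 1 such pair of 2 members. In RefSeq promoter windows of 300 bases (250 before and 50 after a start site, GRCm38.p6), available for 68 members, the ETS letters CCGGAAG, bound by GABP, stood on either strand in 36.8%, against 20.4% of 9801 listed genes. For the NRF1 letters CGCNTGCG the shares were 29.4% and 19.5%, and for the YY1 letters AAGATGG 19.1% and 8.6%. The E-box CACGTG, bound by MYC and MAX, was in 7.4% of members and 11.8% of listed genes, the STAT letters TTCNNNGAA in 8.8% and 8.3%, and the NF-kB consensus in 2.9% and 8.6%. The windows had a median GC content of 58.5% in members and 60.3% in listed genes. GABP, NRF1 and YY1 are known activators of nuclear genes for mitochondrial proteins, and a match in such a window is a description of its letters, not a binding site. The windows of 4 members that the results below turn on are Mrpl45 (chr11:97315466-97315765, + strand), Mrpl52 (chr14:54426659-54426958, + strand), Mrpl32 (chr13:14612988-14613287, - strand) and Mrpl12 (chr11:120484387-120484686, + strand), read 5′ to 3′ along the gene with ETS, NRF1 and YY1 letters in capitals.
Mrpl45: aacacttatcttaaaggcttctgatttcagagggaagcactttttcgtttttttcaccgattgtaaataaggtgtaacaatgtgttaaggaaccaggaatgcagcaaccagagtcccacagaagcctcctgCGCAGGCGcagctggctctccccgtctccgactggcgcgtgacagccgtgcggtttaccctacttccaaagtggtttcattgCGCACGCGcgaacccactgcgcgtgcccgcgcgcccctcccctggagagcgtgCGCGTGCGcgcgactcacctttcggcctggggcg
Mrpl52: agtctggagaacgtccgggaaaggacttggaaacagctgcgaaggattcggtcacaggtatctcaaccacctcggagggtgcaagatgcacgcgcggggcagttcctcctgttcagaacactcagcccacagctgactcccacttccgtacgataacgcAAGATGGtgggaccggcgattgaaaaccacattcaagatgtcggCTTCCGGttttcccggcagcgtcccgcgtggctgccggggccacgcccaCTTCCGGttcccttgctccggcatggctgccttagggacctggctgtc
Mrpl32: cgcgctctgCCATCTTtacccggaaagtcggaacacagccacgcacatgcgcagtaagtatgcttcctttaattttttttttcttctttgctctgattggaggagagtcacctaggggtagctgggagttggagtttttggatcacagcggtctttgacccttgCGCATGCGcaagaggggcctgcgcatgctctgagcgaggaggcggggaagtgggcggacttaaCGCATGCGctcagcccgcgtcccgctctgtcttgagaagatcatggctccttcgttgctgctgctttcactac
Mrpl12: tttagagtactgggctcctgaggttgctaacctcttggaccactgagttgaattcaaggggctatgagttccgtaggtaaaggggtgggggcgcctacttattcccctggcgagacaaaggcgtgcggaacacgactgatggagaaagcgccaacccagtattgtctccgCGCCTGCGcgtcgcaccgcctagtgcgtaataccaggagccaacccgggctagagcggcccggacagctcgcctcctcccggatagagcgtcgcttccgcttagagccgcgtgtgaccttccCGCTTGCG
Mrpl45 holds 3 NRF1 matches, which begin at -119, -37 and 16 from the start site counted as 0, and no ETS or YY1 match. Mrpl52 holds ETS matches at -47 and 2 and a YY1 match at -91. Mrpl32 has NRF1 matches at -86 and -23 and a YY1 match at -241, counted from the RefSeq start site. Its window reaches past the start of Psma2 (14613240), a proteasome subunit gene that runs the other way, and the YY1 match lies beyond that start. In GENCODE M21, Mrpl32 is annotated to start at 14613165, 75 bases from Psma2. Mrpl12 has 2 NRF1 matches, at -80 and 42. After LPS, 16 of 25 members with ETS letters were called higher in cells and 25 of 43 without them (median log2 fold change 0.29 in both). For NRF1 letters these were 11 of 20 (0.24) with and 30 of 48 (0.3) without. For YY1 letters they were 11 of 13 (0.38) with and 30 of 55 (0.27) without, and a link of letters to response was not tested.

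LPS raised most of the mitochondrial ribosomal protein genes of the cells by modest amounts. Of the 77 members, 47 (61%) were called higher, against 28.6% of all 11951 genes tested, and 5 (6.49%) lower, against 27.5%. Their median log2 fold change was 0.29, with a median of 0.01 over all genes, and the members ranged from -0.37 to 0.91. Both subunits took part: 32 of 50 large-subunit genes were called higher and 3 lower, and 14 of 26 small-subunit genes higher and 2 lower. Of the 20 large-subunit genes classed as specific to mitochondria, Mrps18a among them, 14 rose and 0 fell. Summed over the members, LPS cells had 4448, 4653 and 4632 CPM of the library total, against 3674, 3710 and 3483 in control cells. Every LPS library lay above every control library.

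**Figure D1:**
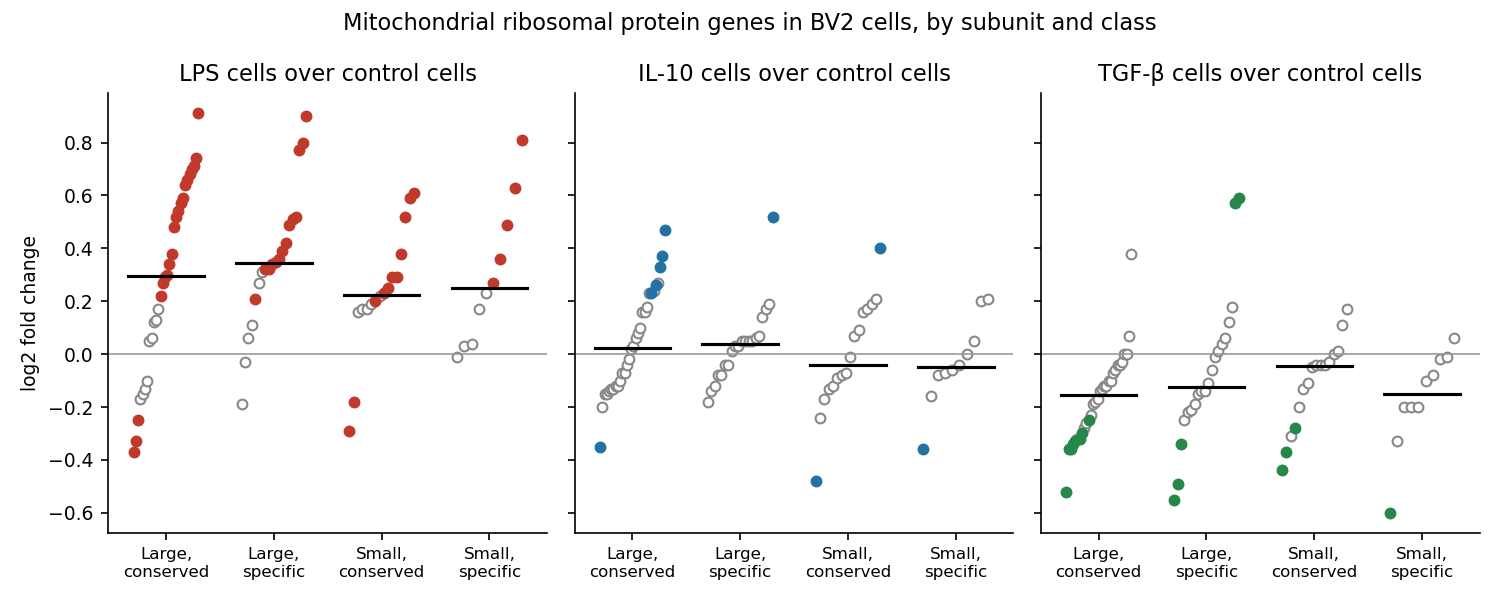
Log2 fold change of 76 members in cells after LPS, IL-10 and TGF-β over control cells (vertical axis), split by subunit and class. Proteins are classed as conserved from bacteria or as specific to mitochondria. The specific class includes Mrps18a and Mrps18b, paralogs of the conserved Mrps18c. Each circle is 1 gene (filled: edgeR adjusted p under 0.05), bars are class medians, and Mrps36 is left out as no part of the ribosome. The LPS medians lie at 0.29, 0.34, 0.23 and 0.25, and the TGF-β medians at -0.16, -0.12, -0.05 and -0.15.

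Among the rises with no overlap between groups, the furthest was Mrpl18, a protein of the central protuberance. It had 39.7, 44.7 and 40 CPM in LPS cells, against 22.8, 23.2 and 20.2 CPM in control cells (1.88-fold, log2 0.91, SE 0.1, adjusted p = 3.36e-07). All 3 LPS libraries lay far above the controls. The gene (chr17:12911349-12916345, - strand, GENCODE M21 on GRCm38) overlaps Tcp1, a chaperonin subunit gene on the other strand, which was itself at 278 CPM in LPS cells and 169 CPM in control cells, and reads of the pair cannot be separated in libraries that do not mark strand. Mrpl52, a mitochondria-specific large-subunit protein, had 59.8, 66.8 and 76.8 CPM in LPS cells, against 36.9, 37.6 and 34.8 CPM in control cells (1.86-fold, SE 0.09, adjusted p = 1.62e-07). Its lowest LPS library was still well above its highest control library. Mrpl45, which anchors the ribosome to the inner membrane beside the tunnel exit, had 106, 122 and 118 CPM in LPS cells, against 67.9, 66.3 and 63.3 CPM in control cells (1.75-fold, log2 0.8, SE 0.07, adjusted p = 2.77e-08). Mrps25, of the small subunit, rose 1.76-fold, to 22.5 ± 2.5 CPM in LPS cells, against 12.8 ± 1 CPM in control cells. Nr2c2, which overlaps it on the other strand, was at 12 CPM in LPS cells and 12.8 CPM in control cells.

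Other rises, chosen after their values were seen, covered several parts of the ribosome. Mrpl42 and Mrpl20 of the large subunit rose 1.7-fold and 1.62-fold, Mrpl13 rose 1.67-fold, and the exit-tunnel protein Mrpl47 rose 1.64-fold from its low level. On the other strand Mrpl13 overlaps Mtbp (15.1 CPM in LPS cells, 12.2 CPM in control cells). Mrpl47 overlaps Actl6a and Ndufb5 there, and Ndufb5 was at 37.2 CPM in LPS cells and 30.2 CPM in control cells. In the stalk that recruits translation factors, Mrpl12, which also binds the mitochondrial RNA polymerase, was at 56 ± 4.61 CPM in LPS cells and 39 ± 2.36 CPM in control cells (1.43-fold, adjusted p = 7.22e-05). Its stalk partner Mrpl10 was at 50.1 ± 2.62 CPM in LPS cells and 55.6 ± 2.84 CPM in control cells, and did not pass (log2 -0.15, adjusted p = 0.129). Mrps12 at the decoding centre rose 1.22-fold (adjusted p = 0.0136), a call lost without control library 1 or LPS library 2 (adjusted p up to 0.0922). Mrpl58, a peptidyl-tRNA hydrolase built into the large subunit, was at 23.5 ± 4.15 CPM in LPS cells and 19.5 ± 1.37 CPM in control cells (adjusted p = 0.0858, or 0.00476 without LPS library 1). Mrps34, mutated in human Leigh syndrome, was at 12.5 ± 2.3 CPM in LPS cells and 12.6 ± 1.59 CPM in control cells. Mrpl41, a large-subunit protein also described as a BCL2 partner, was at 55.6 ± 2.54 CPM in LPS cells and 53.4 ± 2.06 CPM in control cells (adjusted p = 0.564). Mrps36 carries a ribosomal name but is now placed in the 2-oxoglutarate dehydrogenase complex, and it rose 1.54-fold (33.3 ± 1.94 CPM in LPS cells, 21.6 ± 1.57 CPM in control cells). Reads of Mrps36 can be shared with its annotated pseudogenes.

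The falls after LPS were small and included proteins of the exit tunnel and of the core. Mrpl23, which lines the tunnel exit, had 39.7, 42.7 and 42.6 CPM in LPS cells, against 54, 52.8 and 54.7 CPM in control cells (1.29-fold lower, log2 -0.37, SE 0.08, adjusted p = 0.00082). All 3 LPS libraries lay below the controls, and reads of Mrpl23 can be shared with an annotated pseudogene copy. Mrpl24, at the same exit, was 1.25-fold lower (38.8 ± 2.57 CPM in LPS cells, 48.7 ± 3.58 CPM in control cells), while Rrnad1, which overlaps it on the other strand, was at 16.4 CPM in LPS cells and 11.8 CPM in control cells. Mrpl2, close to the catalytic centre, was 1.19-fold lower (72.2 ± 2.85 CPM in LPS cells, 86.1 ± 2.65 CPM in control cells), and Mrps15 1.14-fold lower (adjusted p = 0.0467). The 3 paralogs of bacterial S18 did not move alike: Mrps18a, which sits in the large subunit, rose 1.27-fold, Mrps18b of the small subunit rose 1.21-fold, and Mrps18c, of the small subunit too, fell 1.22-fold. The Mrps18b call ended without control library 3 or LPS library 2 or 3 (adjusted p up to 0.0968), and the Mrps18c call without control library 1 or 3 or LPS library 2 (up to 0.173). The count of 52 called members stayed between 41 and 57 when any 1 library was left out. Among the 52 members that overlap no other listed gene, 31 were called higher and 3 lower.

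**Figure D2:**
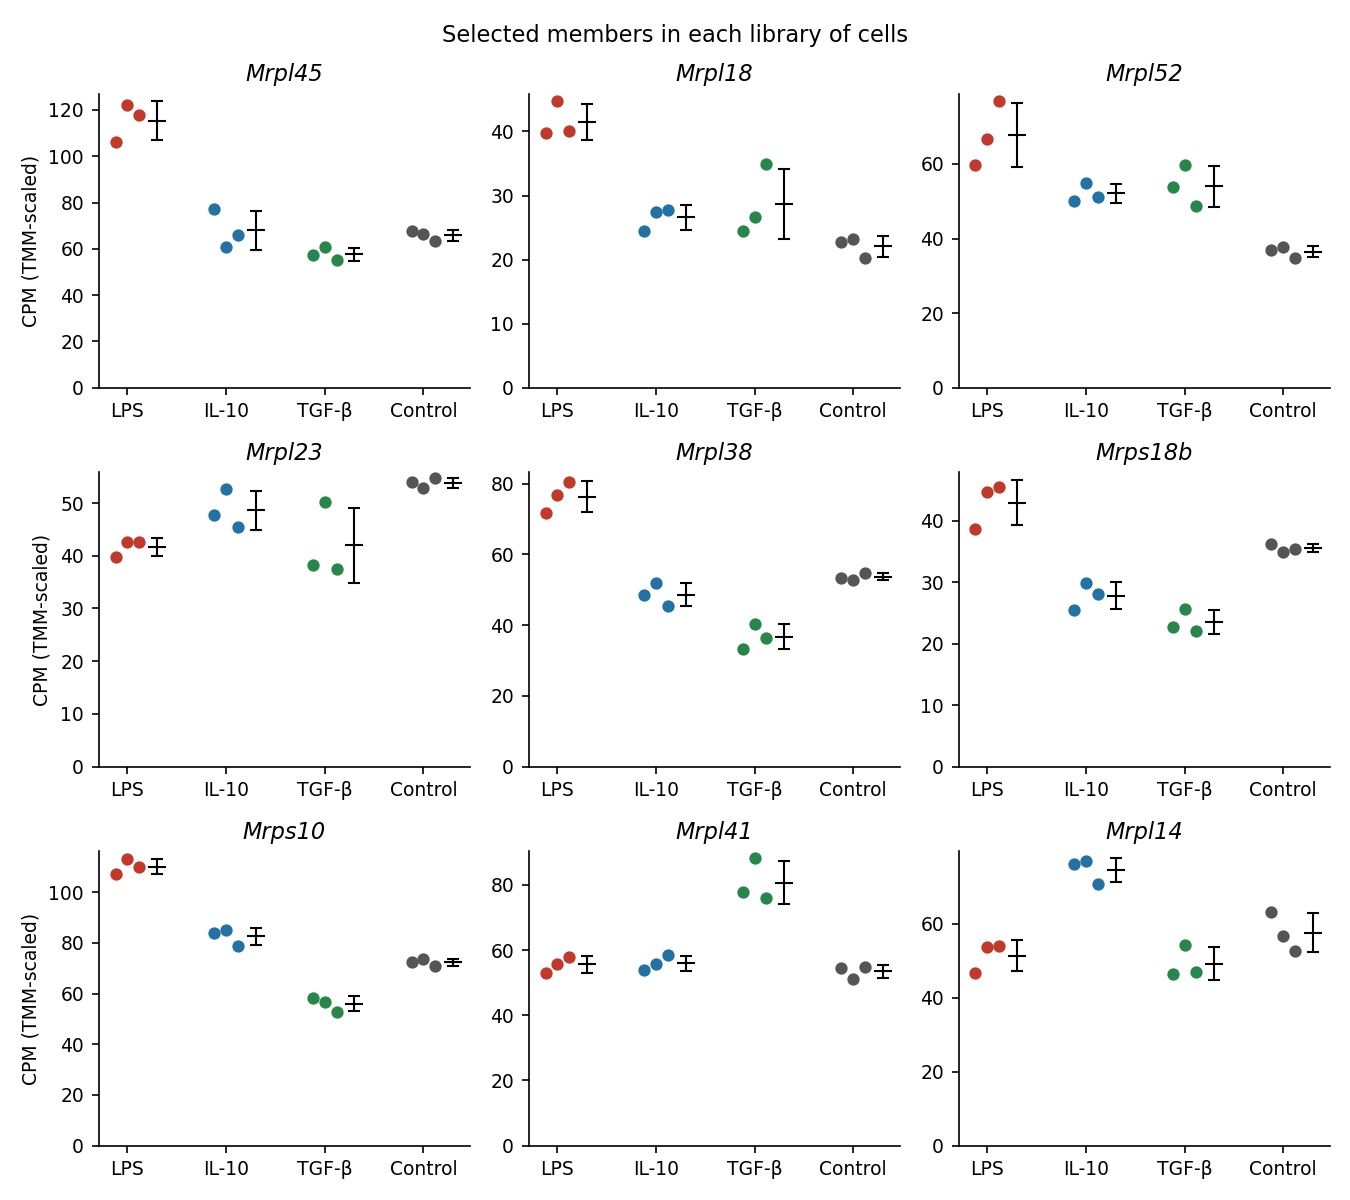
CPM scaled by TMM over the 12 cell libraries (vertical axes, from 0) of 9 members in LPS, IL-10, TGF-β and control cells. Points are libraries, and bars beside them the mean and SD of 3. Mrpl45 and Mrpl18 stand high in LPS cells, Mrpl52 stands above control after each treatment, Mrpl41 is high in TGF-β cells (75.9 to 88.4 CPM) and Mrpl14 in IL-10 cells (70.9 to 77 CPM).

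IL-10 moved few of these genes. In edgeR 7 of 77 (9.09%) were called higher, against 12.3% of all 11790 genes tested, and 3 (3.9%) lower, against 10.9%, so both shares lay below those of all genes. The median log2 fold change was 0.02 over the members and 0 over all genes. Summed over the members, IL-10 cells had 3382, 3344 and 3314 CPM of the library total, all below the control cells (3674, 3710 and 3483). The TMM factors were 0.903 to 0.926 in IL-10 cells and 1.009 to 1.025 in control cells. The balance of rises and falls thus rests on that scaling, and a fit of these cells on library totals was not run. Mrpl52 led the rises with 50.2, 55 and 51.1 CPM in IL-10 cells, against 36.9, 37.6 and 34.8 CPM in control cells (1.43-fold, log2 0.52, SE 0.09, adjusted p = 0.000209). The lowest IL-10 library stood well above the highest control library. Mrpl32, matured by a protease of the inner membrane before it joins the large subunit, was 1.38-fold higher (17.4 ± 1.18 CPM in IL-10 cells, 12.6 ± 1.35 CPM in control cells, adjusted p = 0.012). Mrpl14, on which an assembly factor docks, had 76.1, 77 and 70.9 CPM in IL-10 cells, against 63.3, 56.8 and 52.8 CPM in control cells (1.29-fold, adjusted p = 0.00274). Every IL-10 library was above every control library. That factor, Malsu1, rose 1.54-fold (39.9 ± 1.69 CPM in IL-10 cells, 25.8 ± 1.05 CPM in control cells). Tmem63b, which overlaps Mrpl14 on the other strand, was at 48.4 CPM in IL-10 cells and 50.1 CPM in control cells. Mrps16 rose 1.32-fold, Mrpl28 1.26-fold (213 ± 2.58 CPM in IL-10 cells, 169 ± 13.4 CPM in control cells), Mrpl27 1.2-fold and Mrpl17 1.17-fold. Lower were Mrps6 (1.4-fold, 9.62 ± 1.15 CPM in IL-10 cells, 13.5 ± 1.5 CPM in control cells), Mrps18b (1.28-fold) and Mrpl9 (1.28-fold). Mrps6 overlaps Slc5a3 on the same strand, and the part of Slc5a3 in its values was not tested. The 10 calls came to 3, all higher, without control library 1 and to 6 without IL-10 library 2. Without control library 1 the calls of Mrpl32, Mrps16, Mrps6, Mrps18b and Mrpl9 were lost, as was that of Mrps16 without control library 3 or IL-10 library 2 and that of Mrps6 without IL-10 library 2. Over all alternatives their adjusted p ran up to 0.0725, 0.0973, 0.13, 0.0591 and 0.0624.

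TGF-β lowered members more often than it raised them. Of 77, 15 (19.5%) were called lower, against 15.4% of all 11798 genes tested, and 2 (2.6%) higher, against 14.5%. The median log2 fold change was -0.12 over the members and 0.01 over all genes, and 62 of the 77 values were below 0. Summed over the members, TGF-β cells had 3165, 3418 and 3345 CPM of the library total, all below the control cells (3674, 3710 and 3483). The conserved large-subunit genes held 8 of the falls and 0 rises among 30. Mrps18b fell furthest, with 22.7, 25.7 and 22 CPM in TGF-β cells, against 36.2, 34.9 and 35.4 CPM in control cells (1.51-fold lower, log2 -0.6, SE 0.1, adjusted p = 0.000652). Mrpl38, of the central protuberance, had 33.4, 40.3 and 36.5 CPM in TGF-β cells, against 53.4, 52.8 and 54.8 CPM in control cells (1.46-fold lower, adjusted p = 0.000711). In both genes the highest TGF-β library was well below the lowest control. Mrpl19 was 1.43-fold lower (43.3 ± 1.03 CPM in TGF-β cells, 62 ± 2.02 CPM in control cells), and Mrps18a 1.4-fold lower (72.6 ± 3.32 CPM in TGF-β cells, 102 ± 5.69 CPM in control cells). Gcfc2, which overlaps Mrpl19 on the other strand, was at 7.18 CPM in TGF-β cells and 4.41 CPM in control cells.

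The 2 rises after TGF-β were Mrpl41 and Mrpl52. Mrpl41 had 77.9, 88.4 and 75.9 CPM in TGF-β cells, against 54.4, 51.1 and 54.9 CPM in control cells (1.51-fold, log2 0.59, SE 0.09, adjusted p = 0.000154). Mrpl52 had 53.7, 59.7 and 48.6 CPM in TGF-β cells, against 36.9, 37.6 and 34.8 CPM in control cells (1.48-fold, adjusted p = 0.000718). Both genes were clear of their controls in every library. Of the other members followed for their roles, Mrpl10, Mrps12, Mrpl58, Mrps34, Mrps36 and Mrps18c did not pass, with log2 values of -0.12, 0.11, -0.25, -0.33, 0.19 and -0.31. The number of calls depended on single libraries: 17 in all, 8, 9 or 11 without control library 1, 2 or 3, and 10 without TGF-β library 1. The 6 genes with values above kept their calls under every alternative, with adjusted p up to 0.00806 for Mrpl52.

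Several members were called in opposite directions by different treatments, and since the 3 comparisons share the control libraries, their values are set side by side. Mrps10, a conserved small-subunit protein, had 107, 113 and 110 CPM in LPS cells, 84, 84.9 and 78.7 CPM in IL-10 cells, 58.4, 56.8 and 52.8 CPM in TGF-β cells, and 72.4, 73.6 and 70.8 CPM in control cells. No 2 of its 4 groups overlapped on these TMM-scaled values. Its difference between IL-10 and control cells was not called in edgeR (log2 0.19, adjusted p = 0.0587). That gap depends on the scaling noted above for IL-10 cells. Mrpl38 averaged 76.4 ± 4.41 CPM in LPS cells, 48.6 ± 3.27 CPM in IL-10 cells, 36.8 ± 3.47 CPM in TGF-β cells and 53.7 ± 1.05 CPM in control cells. Mrpl12 averaged 56 ± 4.61 CPM in LPS cells, 39.4 ± 3.57 CPM in IL-10 cells, 30.3 ± 1.91 CPM in TGF-β cells and 39 ± 2.36 CPM in control cells. The same order, LPS above control above TGF-β, was called for Mrps18a, Mrpl15, Mrpl16 and Mrpl57, and for Mrps18b and Mrps6, which IL-10 lowered as well. Without control library 1 the TGF-β calls of Mrpl12, Mrpl15, Mrpl16, Mrpl57 and Mrps6 were lost (adjusted p up to 0.0699, 0.125, 0.0942, 0.0784 and 0.165 over all alternatives). Those of Mrpl12, Mrpl16 and Mrps6 were lost without control library 2 too, those of Mrpl15 and Mrps6 without control library 3, those of Mrpl12, Mrpl15 and Mrps6 without TGF-β library 1, and that of Mrps6 without TGF-β library 2. The LPS rise of Mrps6 was lost without control library 2 or 3 or LPS library 2 or 3 (adjusted p up to 0.151).

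Treated cells were also set directly against each other, in 1 fit of the 12 cell libraries. In LPS cells relative to TGF-β cells, 54 of 77 members (70.1%) were higher, against 29.3% of all 12148 genes tested, and 1 (1.3%) was lower, against 27.8%. Mrpl38 was 2.08-fold higher in LPS cells (log2 1.06, SE 0.09, adjusted p = 5.68e-09), Mrpl45 2-fold, Mrps10 1.96-fold and Mrpl35 1.92-fold (62.7 ± 2.99 CPM in LPS cells, 32.7 ± 2.82 CPM in TGF-β cells). The 1 member lower in LPS cells was Mrpl41 (1.45-fold, adjusted p = 1.45e-05). In LPS cells relative to IL-10 cells, 45 members (58.4%) were higher, against 27% of all genes, and 3 (3.9%) lower, against 26.3%. Mrpl20 (85.7 ± 8.89 CPM in LPS cells, 46 ± 0.487 CPM in IL-10 cells), Mrps6, Mrps28 and Mrpl45 were 1.87-fold, 1.82-fold, 1.78-fold and 1.69-fold higher in LPS cells. Mrpl14, Mrpl30 and Mrpl10 were 1.45-fold, 1.2-fold and 1.19-fold lower. The Mrpl30 call was lost without LPS library 1 or 2 (adjusted p up to 0.0591) and the Mrpl10 call without LPS library 1 or IL-10 library 2 (up to 0.0738). In TGF-β cells relative to IL-10 cells, 20 members (26%) were lower, against 20% of all genes, and 1 (1.3%), Mrpl41, was higher, against 18.3%. On library totals the summed members overlapped, at 3165, 3418 and 3345 CPM in TGF-β cells and 3382, 3344 and 3314 in IL-10 cells. The TMM factors were 0.998 to 1.041 in TGF-β cells and 0.903 to 0.926 in IL-10 cells. The surplus of falls thus rests on that scaling, and a fit on library totals was not run. Mrps18a had 71.7, 69.9 and 76.3 CPM in TGF-β cells, against 113, 116 and 114 CPM in IL-10 cells (1.57-fold lower, adjusted p = 1.95e-06). The groups were far apart. Mrpl14 was 1.52-fold, Mrps10 1.47-fold and Mrpl32 1.44-fold lower in TGF-β cells. Tmem63b, which overlaps Mrpl14 on the other strand, was at 30 CPM in TGF-β cells, 48.4 in IL-10 cells and 42.7 in LPS cells. It was thus lower in TGF-β than in IL-10 cells too, and reads of the pair cannot be separated without strand.

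**Figure D3:**
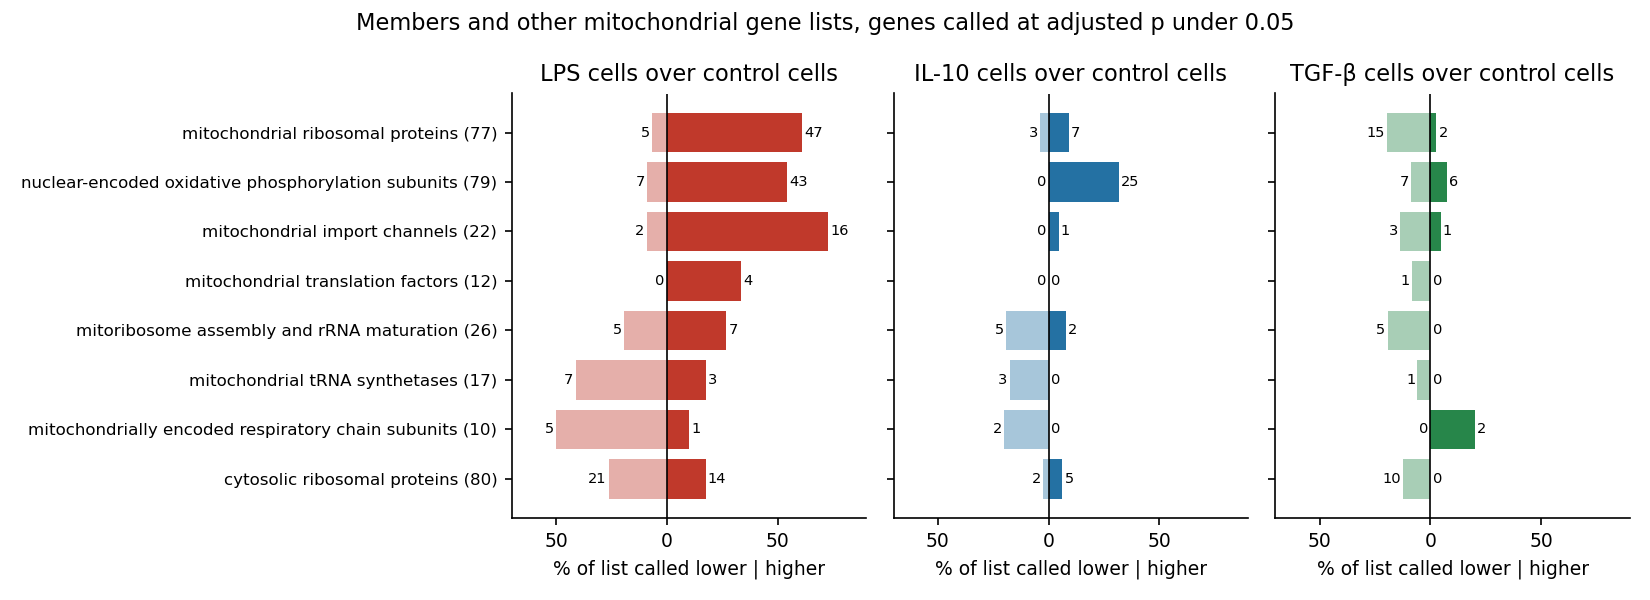
Percentage of each gene list called higher (right, full colour) and lower (left, pale) in LPS, IL-10 and TGF-β cells over control cells (horizontal axis), with the number of genes beside each bar and the genes tested in brackets. In LPS cells 47 of 77 mitochondrial ribosomal protein genes, 43 of 79 oxidative phosphorylation genes and 16 of 22 import genes were called higher, and 14 of 80 cytosolic ribosomal protein genes.

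Other genes of the pathway are counted here beside the 28.6% of all genes called higher and 27.5% called lower after LPS. Of 5 mitochondrial ribosomal proteins with other names, 2 rose and 1 fell after LPS, among them Ptcd3 (mS39), which was 1.83-fold higher (104 ± 4.47 CPM in LPS cells, 56.7 ± 4.05 CPM in control cells), and Aurkaip1, which was 1.14-fold lower. Among import channel genes 16 of 22 rose and 2 fell, and among nuclear genes of oxidative phosphorylation 43 of 79 rose and 7 fell. Timm17a, a subunit of the inner membrane channel, was 1.93-fold higher (161 ± 8.65 CPM in LPS cells, 83.2 ± 3.71 CPM in control cells), and Uqcr10 of complex III 1.66-fold. Translation factors rose in 4 of 12 with 0 lower (Gfm1, the elongation factor, 1.36-fold), and assembly factors rose in 7 of 26 and fell in 5. The tRNA synthetases that charge mitochondrial tRNAs rose in 3 of 17 and fell in 7, Vars2 by 1.65-fold. Messages made inside the organelle rose in 1 of 10 and fell in 5, with mt-Cytb at 230 ± 15.9 CPM in LPS cells and 495 ± 136 CPM in control cells. Among cytosolic ribosomal protein genes 14 of 80 were higher and 21 lower (median log2 0).

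After each cytokine the same lists were counted against the shared control libraries, and differences between treatments in these lists were not tested. After IL-10, which raised 12.3% and lowered 10.9% of all genes, 25 of 79 oxidative phosphorylation genes rose and 0 fell, with Atp5f1 of the ATP synthase 1.48-fold higher, while 1 of 22 import genes rose and 0 fell. After TGF-β, with 14.5% of all genes higher and 15.4% lower, assembly factors rose in 0 of 26 and fell in 5, while 6 of 79 oxidative phosphorylation genes were higher and 7 lower, and 0 of 80 cytosolic ribosomal protein genes higher and 10 lower. Of 13 tested genes of mitochondrial biogenesis and transcription, Gabpb1, a subunit of the GABP factor, was at 44.1 ± 5.29 CPM in LPS cells, 39.5 ± 2.96 CPM in IL-10 cells and 23.3 ± 1.62 CPM in control cells (1.9-fold after LPS and 1.7-fold after IL-10). Myc, a growth factor-induced activator of ribosome genes, was at 8.18 ± 0.624 CPM in LPS cells, 24.2 ± 4.15 CPM in IL-10 cells, 4 ± 0.389 CPM in TGF-β cells and 15.2 ± 1.75 CPM in control cells, and passed in all 3 comparisons. The list as a whole rose in 5 and fell in 2 after LPS, rose in 2 and fell in 2 after IL-10, and rose in 1 and fell in 2 after TGF-β.

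The calls of neighbours that share a start region with a member are given beside those of all genes (28.6% higher and 27.5% lower after LPS), with no test of the pairs. Of 18 members higher after LPS that have a tested partner head to head, 7 had a partner called higher, 5 a partner called lower and 6 a partner not called. Mrpl32 and Psma2, whose shared start region is printed above, had log2 fold changes of 0.59 and 0.58 after LPS and of 0.47 and 0.34 after IL-10. Mrpl36 and Ndufs6, a complex I subunit, had 0.38 and 0.42 after LPS, and Mrpl47 and Ndufb5, also of complex I, 0.71 and 0.31. Mrps12 and Sars2, the mitochondrial seryl-tRNA synthetase, had 0.29 and -0.3, Mrps18b and Ppp1r10 had 0.27 and -0.5, and Mrpl49 and Fau, a cytosolic ribosomal protein gene, had 0.42 and 0.03. Mrpl46 and Mrps11, the pair of 2 members, had 0.32 and 0.52. Mrpl36 and Ndufs6, Mrpl47 and Ndufb5, and Mrpl46 and Mrps11 also overlap each other on opposite strands. Their reads cannot be separated in libraries that do not mark strand, so like values in such pairs may come from shared reads. Overlapping pairs are also among the 18.

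**Figure D4:**
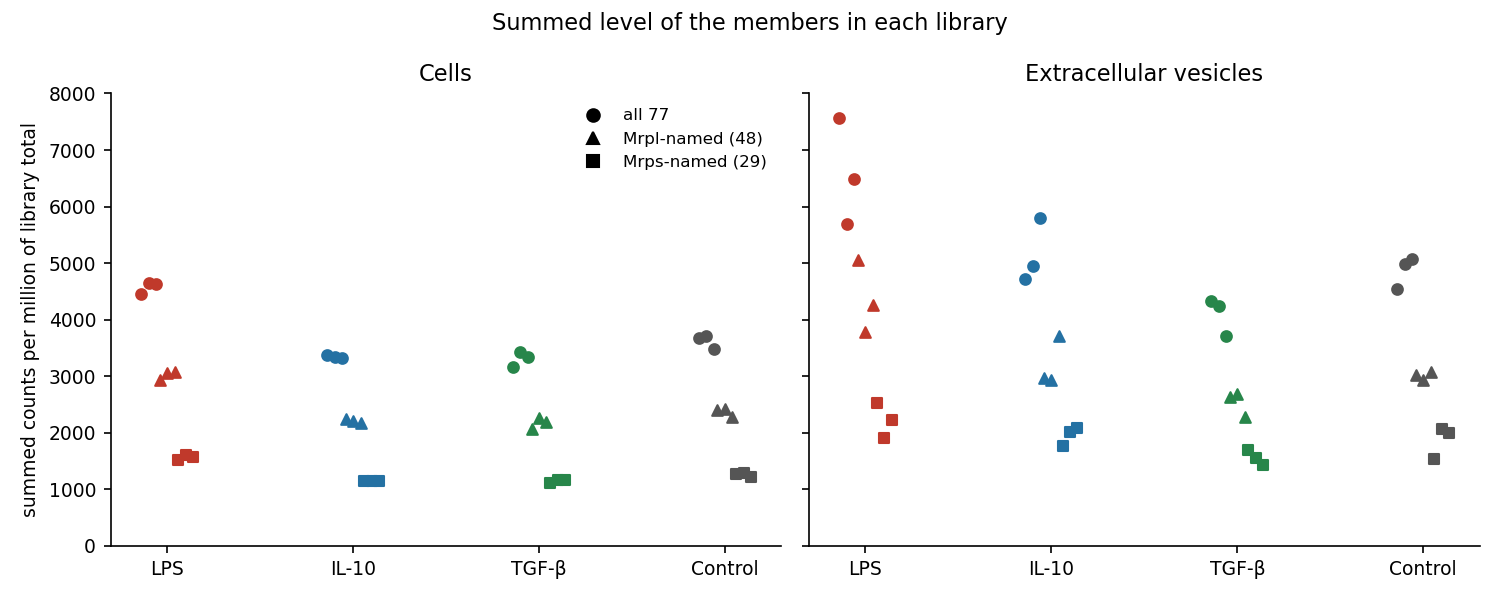
CPM of the library total summed over the 77 members (circles), the 48 Mrpl genes (triangles) and the 29 Mrps genes (squares), for each library of cells (left) and EVs (right) after LPS, IL-10 and TGF-β and in controls. LPS cells lie at 4448 to 4653, and the LPS EVs spread from 5684 to 7570.

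EVs carried RNA of the same genes, at a larger share of the library in each EV library than in any cell library of the same treatment. The members summed to 7570, 5684 and 6480 CPM in LPS EVs, to 4720, 4949 and 5795 in IL-10 EVs, to 4325, 4242 and 3708 in TGF-β EVs and to 4541, 4992 and 5068 in control EVs. Each LPS EV library was above all control EV libraries and each TGF-β EV library below them, on library totals without TMM. The TMM factors were 1.061 to 1.37 in LPS, 0.791 to 0.91 in TGF-β and 0.938 to 1.161 in control EVs. Scaling by them lowers the LPS sums and raises the TGF-β sums, so both orders rest on library totals. With TMM, the median log2 fold change over control EVs was 0.18 for members and 0.33 for all genes after LPS. After TGF-β these were -0.25 and -0.13. Of the 77 members, 58 had counts in all EV libraries, and 19 were at 0 in at least 1. The zeros were 13 genes in TGF-β EV library 1 and at most 3 in any other EV library. Mrpl3, a large-subunit core protein, had no count in TGF-β EV libraries 1 and 3 and control EV library 3, where a count of 0 allows up to 0.658, 0.434 and 0.428 CPM (3 counts).

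No member was called between treated and control EVs. After LPS, 0 of 77 passed in edgeR, against 14.2% of all 12216 genes tested, with 5 members and 2473 genes at an unadjusted p under 0.05. DESeq2 called 6 members, 5 higher and 1 lower, beside 2141 genes higher and 225 lower. Without any 1 of the 3 LPS EV libraries edgeR called 0 of all genes. Mrpl10 had the lowest p: it had 29.3, 19.6 and 29 CPM in LPS EVs, against 108, 64 and 75.2 CPM in control EVs (log2 -1.64, SE 0.55, adjusted p = 0.116, or 0.00401 in DESeq2). The 2 groups did not overlap. Mrpl51 and Mrpl34 came next, at 206 ± 83 CPM in LPS EVs and 85.7 ± 29.6 CPM in control EVs, and at 127 ± 51.1 CPM in LPS EVs and 53.6 ± 12.5 CPM in control EVs (adjusted p = 0.162 and 0.179). After IL-10, 0 of 77 members and 0% of 8992 genes were called, with 0 members and 177 genes at an unadjusted p under 0.05, and DESeq2 called 0 members too. The lowest p were those of Mrpl28 (337 ± 51.8 CPM in IL-10 EVs, 139 ± 95.4 CPM in control EVs), Mrps26 and Mrpl37. After TGF-β, 0 of 77 members and 0% of 9093 genes were called, with 0 members and 360 genes at an unadjusted p under 0.05, and 0 members in DESeq2. Here Mrpl28 (340 ± 88.4 CPM in TGF-β EVs, 139 ± 95.4 CPM in control EVs), Mrpl30 and Mrpl19 had the lowest p.

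**Figure D5:**
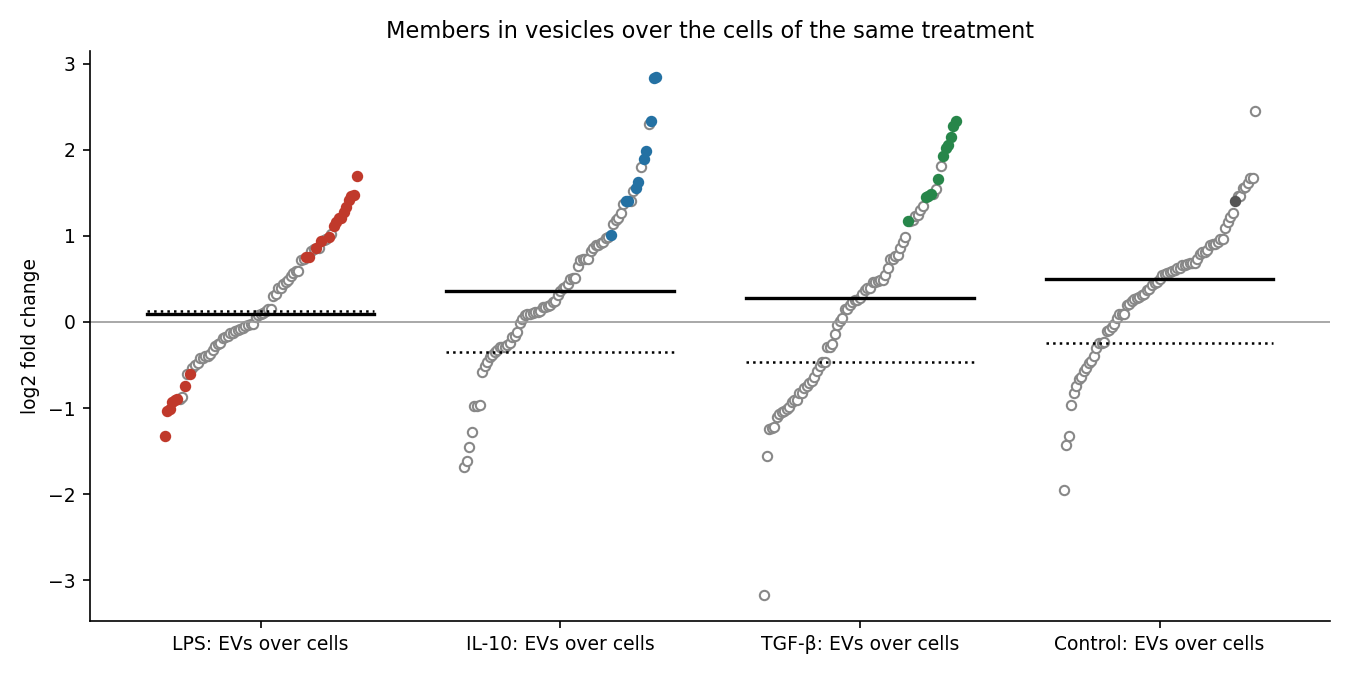
Log2 fold change of the 77 members in EVs over cells of the same treatment (vertical axis), for LPS, IL-10, TGF-β and control, each circle 1 gene in rising order (filled: edgeR adjusted p under 0.05). Solid bars are the medians of the members (0.09, 0.36, 0.28 and 0.5) and dotted bars those of all genes tested (0.13, -0.35, -0.46 and -0.24).

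Between EVs and the cells of the same treatment, members stood higher in EVs where they were called in IL-10, TGF-β and control samples, and went both ways in LPS samples. In LPS EVs relative to LPS cells 15 members (19.5%) were higher, against 25.3% of all 13113 genes, and 8 (10.4%) lower, against 15.2%. Mrpl51 had 338, 161 and 182 CPM in LPS EVs, against 69.3, 73.8 and 69.4 CPM in LPS cells (3.22-fold, log2 1.69, SE 0.31, adjusted p = 0.00375, scaled within these 6 libraries). LPS EV library 1 was the highest and all 3 lay above the cells. Mrpl18, Mrpl42 and Mrpl30 were 2.77-fold, 2.75-fold and 2.68-fold higher, and Mrpl39, a mitochondria-specific large-subunit protein, was 2.52-fold lower (36.2 ± 6.11 CPM in LPS EVs, 91.8 ± 3.08 CPM in LPS cells). Mrpl10 was 2.04-fold, Mrpl3 2.01-fold and Mrpl36 1.9-fold lower. Among the 20 shortest transcripts (418 to 923 bases) 8 were higher and 1 lower in LPS EVs, and among the 20 longest (2596 to 7300 bases) 3 were higher and 1 lower. The same groups held 3 and 4 higher in IL-10 EVs and 3 and 2 higher in TGF-β EVs, with 0 lower, and the rank correlation of fold change with length over the 77 members was -0.32 in LPS, -0.11 in IL-10, -0.1 in TGF-β and -0.16 in control samples, as a description of genes that share libraries. Without LPS cell library 1, 2 or 3 the 23 calls came to 4, 4 and 5, and without LPS EV library 3 to 9, and the calls of Mrpl10, Mrpl3 and Mrpl36 were lost without any 1 of the cell libraries (adjusted p up to 0.105, 0.13 and 0.139). Mrpl3 and Mrpl36 were lost also without LPS EV library 2 or 3, and Mrpl30 without LPS cell library 1 or 2 (up to 0.0594).

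In IL-10 EVs 10 members (13%) were higher than in IL-10 cells, against 7.49% of all 11447 genes, and 0 lower, against 10.2%. Mrpl9 had 297, 253 and 158 CPM in IL-10 EVs, against 31.5, 31.8 and 37.1 CPM in IL-10 cells (7.21-fold, log2 2.85, SE 0.33, adjusted p = 0.0183), and Mrpl18 was 7.16-fold, Mrpl42 5.06-fold and Mrps26 3.97-fold higher. Every EV library of Mrpl9 was far above its cell libraries. In TGF-β EVs 11 members (14.3%) were higher than in TGF-β cells, against 9.42% of all 11389 genes, and 0 lower, against 8.99%. They were led by Mrps23 (5.08-fold, 127 ± 37.8 CPM in TGF-β EVs, 25.7 ± 0.593 CPM in TGF-β cells), Mrpl9 (4.85-fold), Mrpl30 (4.43-fold) and Mrpl19 (4.18-fold). In control EVs 1 member (1.3%), Mrpl52, was higher than in control cells, against 1.23% of all 11427 genes, and 0 were lower, against 9.43%. It had 71.2, 106 and 112 CPM in control EVs, against 37.6, 38.3 and 35.1 CPM in control cells (2.66-fold, adjusted p = 0.04). With any 1 IL-10 or TGF-β or control cell library left out, 0 calls of the comparison concerned remained. Leaving out EV libraries raised the numbers, to 26 without IL-10 EV library 3, to 18 and 22 without TGF-β EV library 1 and 2, and to 22, 5 and 4 without control EV library 1, 2 and 3.

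Mrpl18, Mrpl42, Mrps21 and Mrps26 were called higher in EVs than in cells in LPS, IL-10 and TGF-β samples alike, comparisons that share no library. These are 4 of 77 members (5.19%), and 399 of the 11088 genes tested in all 3 comparisons (3.6%) did the same. In control samples, where none of the 4 passed, Mrpl42 was at 145 ± 58.9 CPM in EVs and 46.8 ± 3.68 CPM in cells (adjusted p = 0.0597) and Mrps21 at 187 ± 79.9 CPM in EVs and 69.6 ± 7.32 CPM in cells (adjusted p = 0.0889). Mrpl18 had 16.1, 158 and 184 CPM in control EVs, against 23.3, 23.6 and 20.4 CPM in control cells (adjusted p = 0.192). Control EV library 1, the deepest of the EV libraries, lay below the cells, and the other two far above them. Cytosolic ribosomal protein genes stood much higher in EVs as a list: 55 of 80 were called higher in LPS, 72 of 80 in IL-10, 74 of 78 in TGF-β and 1 of 79 in control samples, with median log2 fold changes of 1.25, 2.09, 2.22 and 1.46. For nuclear genes of oxidative phosphorylation the counts were 7, 10, 9 and 2 of 79 higher and 7, 1, 1 and 1 lower.

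Whether a treatment acted differently on the RNA of EVs and of cells was tested as the difference of both effects. For LPS, 2 of 77 members (2.6%) differed, against 16.1% of all 13263 genes tested, and both were Mrpl genes whose value in EVs fell short of that in cells. Mrpl45 had 112, 72.5 and 91.3 CPM in LPS EVs, against 146, 116 and 106 CPM in control EVs, while it rose 1.75-fold in cells (difference of log2 effects -1.37, SE 0.37, adjusted p = 0.0255). For Mrpl10 the difference was -1.66 (SE 0.46, adjusted p = 0.0308), with its EV values given above. Both calls were lost without any 1 control or LPS cell library or LPS EV library 2 (adjusted p up to 0.117 for Mrpl45 and 0.122 for Mrpl10), and the number of calls was 9 without control EV library 1 and 4 without control EV library 2. For IL-10, 0 of 77 members differed in edgeR, against 0.285% of all genes, with 2 at an unadjusted p under 0.05 and 2 called by DESeq2. Mrps26, Mrpl19 and Mrpl9 had the lowest p there, with differences of 1.03, 1.04 and 1.25 (adjusted p = 0.367, 0.398 and 0.506). For TGF-β, 0 of 77 differed, against 0.31% of all genes, with 3 at an unadjusted p under 0.05 and 1 called by DESeq2. Mrpl19, Mrpl28 and Mrpl41 had differences of 1.45, 1.35 and -1.58 (adjusted p = 0.255, 0.335 and 0.369). Single libraries moved these counts to 1, without control EV library 2 or IL-10 EV library 1 for IL-10, and without control EV library 2 or TGF-β EV library 2 for TGF-β.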

How the data were processed

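The deposited files held counts per gene for 24 RNA-seq libraries, with 1 treatment and its controls in each table, made by the authors. Per the labels' protocols, RNA was taken with miRNeasy, amplified with SMART-Seq v4 (18 PCR cycles, no strand) and sequenced as pairs of 150 bases. DESeq2 is named in the submitters' processing notes, while for aligner, genome build and annotation: not given in the sources used here. Cells dosed with EVs, which the design mentions, were not analysed here.

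Groups came from the labels, with 3 libraries each. Counts were tested with edgeR 4.0.16 (quasi-likelihood, robust, TMM scaling, filterByExpr, limma 3.58.1, R 4.3.3) with Benjamini-Hochberg adjustment over all genes tested and a threshold of 0.05. Treated and control groups, and EVs and cells, were fitted on their 6 libraries, treatments against each other on the 12 cell libraries, and differences of effects on the 12 libraries concerned. CPM were scaled by TMM within the 12 libraries of cells or of EVs, except EVs against cells, which used their 6. Summed levels used library totals, and a count of 0 was given a limit of 3 counts, which covers counting error only. Levels per kb used the principal transcript of GENCODE M21. Alternatives were RLE scaling, DESeq2 1.42.0, 2 other filters (at least 1 count, a mean of at least 50) and leaving out each library. Library totals were an alternative only in comparisons with EVs, so comparisons of cells with cells were not run on them. All 12 libraries of the compartment were used as an alternative only for treated against control groups. The fits were tested on simulated data. Tables and figures were made with Python 3.11.15, pandas 2.3.3, numpy 2.4.6 and matplotlib 3.10.9.

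Named in each comparison were the 4 largest rises and 4 largest falls among called members with no overlap between groups and a mean of at least 50 counts, or the 3 lowest p where none passed; members called in opposite directions; the 5 highest and 5 lowest per kb; 10 members kept for known roles or paralogy; and up to 3 genes of each context list. The other rises and falls, the neighbours, the overlapping genes and the EV genes shared by 3 comparisons were chosen after their values were seen. Members and lists were chosen with earlier results of these data known.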

Additional observations from a re-analysis of the deposited data

Results flagged for a closer look

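The difference between the LPS effect in EVs and that in cells was -1.66 for Mrpl10 and -1.37 for Mrpl45 on the log2 scale, and both passed the edgeR test of that difference (adjusted p = 0.0308 and 0.0255). Both calls were lost without any 1 control or LPS cell library, without LPS EV library 2, and with a mean of at least 50 counts (adjusted p up to 0.122 for Mrpl10 and 0.117 for Mrpl45), and the number of members called ran from 0 to 9 when 1 library was left out. Mrpl10 averaged 26 ± 5.54 CPM in LPS EVs and 82.5 ± 23 CPM in control EVs, and 50.1 ± 2.62 CPM in LPS cells and 55.6 ± 2.84 CPM in control cells. Mrpl45 had 112, 72.5 and 91.3 CPM in LPS EVs and 146, 116 and 106 CPM in control EVs, and averaged 115 ± 8.59 CPM in LPS cells and 65.8 ± 2.37 CPM in control cells.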

How the results depend on the processing

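No paired analysis was made: libraries are numbered within each group, but nothing states that equal numbers across groups mark the same culture. EVs and cells were tested as independent libraries. Of the recomputed counts of called members 143 lay within 1.5 times the value reported and 51 did not, and of the values of named members 1161 kept direction and call, 104 lost the call, 12 gained one and 6 turned. The turned values were all uncalled: Mrps34 after LPS gave 0 with a mean of at least 50 counts, 0.1 without control library 2 and 0.11 without LPS library 1, Mrpl12 after IL-10 gave -0.03 without control library 3 and -0.06 without IL-10 library 2, and Mrpl57 after IL-10 gave -0.02 without IL-10 library 2. Leaving out 1 library at a time took these values from -0.16 to 0.11 for Mrps34, from -0.06 to 0.07 for Mrpl12 and from -0.02 to 0.13 for Mrpl57. DESeq2 called 6 members in LPS EVs against control EVs (library totals 1), 20 in control EVs against control cells (RLE 2, library totals 3, a mean of at least 50 counts 0), 24 in IL-10 EVs and 23 in TGF-β EVs against their cells, and 4, 2 and 1 for the difference of effects of LPS, IL-10 and TGF-β (for LPS, library totals 1 and a mean of at least 50 counts 0); the cause was not tested. Leaving out 1 library at a time gave 41 to 57 calls for LPS, 3 to 11 for IL-10 and 8 to 22 for TGF-β cells against control cells, 0 to 0 for each EV group against control EVs, 4 to 31 for LPS, 0 to 26 for IL-10, 0 to 22 for TGF-β and 0 to 22 for control EVs against cells, 0 to 9 for the difference of LPS effects and 0 to 1 for those of IL-10 and TGF-β, 42 to 47 for LPS against IL-10, 49 to 59 for LPS against TGF-β and 16 to 27 for TGF-β against IL-10 cells. EV libraries held fewer counts and spread more widely than cell libraries.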
